A study of Homo sapiens with 6 samples.

Results

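The GADD45 genes were examined in the human β cell line EndoC-βH1 after acute exposure to the checkpoint kinase inhibitor AZD7762. The group was defined by symbol and comprised GADD45A, GADD45B, GADD45G and GADD45GIP1, that is 4 of the 60671 gene identifiers counted in each library. Bulk RNA-seq had been performed on 3 libraries of cells given the vehicle DMSO and 3 of cells given 1 µM AZD7762, which inhibits CHEK1 and CHEK2. All cells were wild type. They were kept at 0.5 mM glucose for a starvation period of 1 h and then stimulated for 1 h with compound or vehicle present throughout, and the glucose concentration of the stimulation step, 0.5 or 20 mM, is not given for each library. EndoC-βH1 cells were immortalized with SV40 large T antigen, and this holds for both groups. The study's methods describe its in vitro replicates in general as independent, but the labels do not say what separates these libraries, and p-values measure the spread between them.

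GADD45A, GADD45B and GADD45G encode small acidic proteins of one family without known enzymatic activity. Their transcripts are induced by DNA damage, growth factor withdrawal, cytokines and, in excitable cells, by activity. The proteins bind the kinase MAP3K4 and so activate the p38 and JNK pathways, bind the CDK1-cyclin B1 complex, PCNA and p21, and take part in active DNA demethylation. GADD45GIP1, also called CRIF1, was named for its binding to GADD45 proteins but belongs to another family and is a component of the large subunit of the mitochondrial ribosome.

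The labelled cell type was first checked against marker genes. All 10 β cell markers examined were detected, with INS at 1260 ± 351 normalized CPM (counts scaled to library size) with DMSO and 1410 ± 250 CPM in AZD7762 libraries (SD, n = 3 in each group) and PDX1 at 350.7 ± 6.76 and 374.2 ± 8.43 CPM. The α cell hormone gene GCG was at 1.40 ± 0.0655 CPM with DMSO, whereas TTR, a secreted carrier protein also on the α cell list, was at 1863 ± 161 CPM. SST, the δ cell hormone gene, was at 214.5 ± 12.4 CPM in DMSO libraries and 253.6 ± 11.5 CPM in AZD7762 libraries, with no overlap and an edgeR adjusted p of 0.16. Such a separation held for 15.0% of all genes tested. The other δ cell marker, HHEX, was at 20.4 ± 3.20 and 17.9 ± 1.43 CPM (edgeR adjusted p = 0.645). The part of these genes in the results was not tested. The endothelial gene CDH5, the T cell gene CD3E and the acinar genes PRSS1 and CELA3A had no counts. The other acinar gene examined, CPA1, was at 22.6, 21.0 and 21.9 CPM in DMSO libraries and 27.5, 24.7 and 24.9 CPM in AZD7762 libraries. Its groups did not overlap either, as for 15.0% of all genes tested, and the edgeR adjusted p was 0.308. The part of CPA1 in the results was not tested. Other markers were also detected. The α cell gene IRX2 was at 71.8 ± 8.54 and 71.4 ± 4.63 CPM in the DMSO and AZD7762 groups. Of the ductal genes, KRT19 was at 26.1 ± 3.07 and 27.1 ± 1.73 CPM, and CFTR had 39 counts over the 6 libraries. Of the fibroblast genes, COL1A1 was at 12.1 ± 3.20 and 12.5 ± 1.46 CPM, and COL3A1 and PDGFRB were at 0.941 ± 0.122 and 0.826 ± 0.200 CPM with DMSO. The immune genes PTPRC and CD68 had 11 and 4 counts over the 6 libraries, and the endothelial gene VWF had 1. No marker of any of these cell types was among the genes called between the groups. In bulk libraries, fewer cells of a type and less RNA per cell cannot be told apart.

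The 4 genes lie at separate loci on 3 chromosomes in the GRCh37 annotation. GADD45A (ENSG00000116717) is on chromosome 1 from 68150884 to 68154017, GADD45B (ENSG00000099860) on chromosome 19 from 2476120 to 2478257, and GADD45G (ENSG00000130222) on chromosome 9 from 92219927 to 92221470, each on the plus strand. Their gene models were alike, with 4 exons in the canonical transcript and a coding length of 495, 480 and 477 bases. GADD45GIP1 (ENSG00000179271) is on the minus strand of chromosome 19 from 13063933 to 13068037, with 2 exons and a coding length of 666 bases. None of the exon length of GADD45A, GADD45B or GADD45G overlaps an annotated exon of another gene. Nothing states whether counting used strand, so reads from the opposite strand may be included in the value of GADD45GIP1, which is uncertain to that extent.

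Promoter sequences are shown for GADD45B, which was called between the groups, and for GADD45G, its paralog of similar gene structure that was not. RefSeq promoters (GRCh38.p14) were matched by symbol for GADD45B, GADD45G and GADD45GIP1, and not for GADD45A. The 250 bases before the start of transcription are printed 5′ to 3′ on the plus strand, chr19:2475877-2476126 for GADD45B and chr9:89604762-89605011 for GADD45G, with capitals marking the motif matches listed after them.
GADD45B: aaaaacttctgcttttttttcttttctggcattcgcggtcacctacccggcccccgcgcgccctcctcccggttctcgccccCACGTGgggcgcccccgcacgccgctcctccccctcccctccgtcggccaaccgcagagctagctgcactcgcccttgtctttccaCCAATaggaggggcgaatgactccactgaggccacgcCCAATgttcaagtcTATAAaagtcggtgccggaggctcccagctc
GADD45G: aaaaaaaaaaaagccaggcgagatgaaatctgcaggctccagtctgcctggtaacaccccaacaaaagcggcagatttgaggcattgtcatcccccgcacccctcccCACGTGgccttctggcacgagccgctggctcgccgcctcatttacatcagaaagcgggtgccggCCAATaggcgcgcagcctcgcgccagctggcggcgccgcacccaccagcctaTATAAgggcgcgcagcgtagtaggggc
The 7 motifs named here were searched on both strands of this window, and apart from TGACG within TGACGTCA none contains another. Both promoters held the E-box CACGTG, the CCAAT box CCAAT and the TATA box TATAA, of which CACGTG reads the same on both strands. In GADD45B, the matches started 168 bases (E-box), 82 and 45 bases (CCAAT) and 31 bases (TATA) before the start. In GADD45G, they started 143 (E-box), 79 (CCAAT) and 27 bases (TATA) before it. Of the 35116 promoters in the table, 6.34% held the E-box, 32.0% the CCAAT box and 18.9% the TATA box. The GADD45GIP1 promoter held TATAA, at 153 bases on the opposite strand and at 138 bases before the start, and the GC box GGGCGG, found in 42.6% of promoters, but neither CCAAT nor CACGTG. None of these 3 windows contained the AP-1 motif TGANTCA, the cAMP response element TGACGTCA or the shorter TGACG contained in it, which 6.57%, 1.65% and 21.2% of promoters held. These matches are a description of letters and not evidence of binding.

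GADD45B was the only one of the 4 genes called between AZD7762 and DMSO. GADD45B, also known as MYD118, is an early response gene that is known to bind and inhibit the JNK kinase MAP2K7. With DMSO its level was 1.29, 1.99 and 2.44 normalized CPM in replicates 1, 2 and 3, from 38, 54 and 51 counts. With AZD7762 it was 6.12, 5.56 and 7.32 CPM, from 154, 117 and 156 counts. Every AZD7762 library lay above every DMSO library, and the 95% Poisson intervals, which cover counting error only, did not overlap between the groups either, the highest DMSO bound being 3.21 CPM and the lowest AZD7762 bound 4.6 CPM. The mean was 1.91 ± 0.583 CPM in DMSO libraries and 6.33 ± 0.897 CPM in AZD7762 libraries (SD, n = 3 in each group). GADD45B rose 3.39-fold (95% confidence interval 2.52 to 4.57), a log2 fold change of 1.76 with a standard error of 0.198 and an adjusted p of 0.000463 by the quasi-likelihood test of edgeR, adjusted after Benjamini and Hochberg over the 17649 genes tested. Of these genes, 0.357% were called higher with AZD7762 at an adjusted p under 0.05, 63 in all, and GADD45B had the 16th largest fold change of the 63. It was called in each of the 6 fits that left out 1 library, and the log2 fold change was lowest, 1.52, when DMSO replicate 1 was left out and highest, 1.96, when DMSO replicate 3 was.

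**Figure D1:**
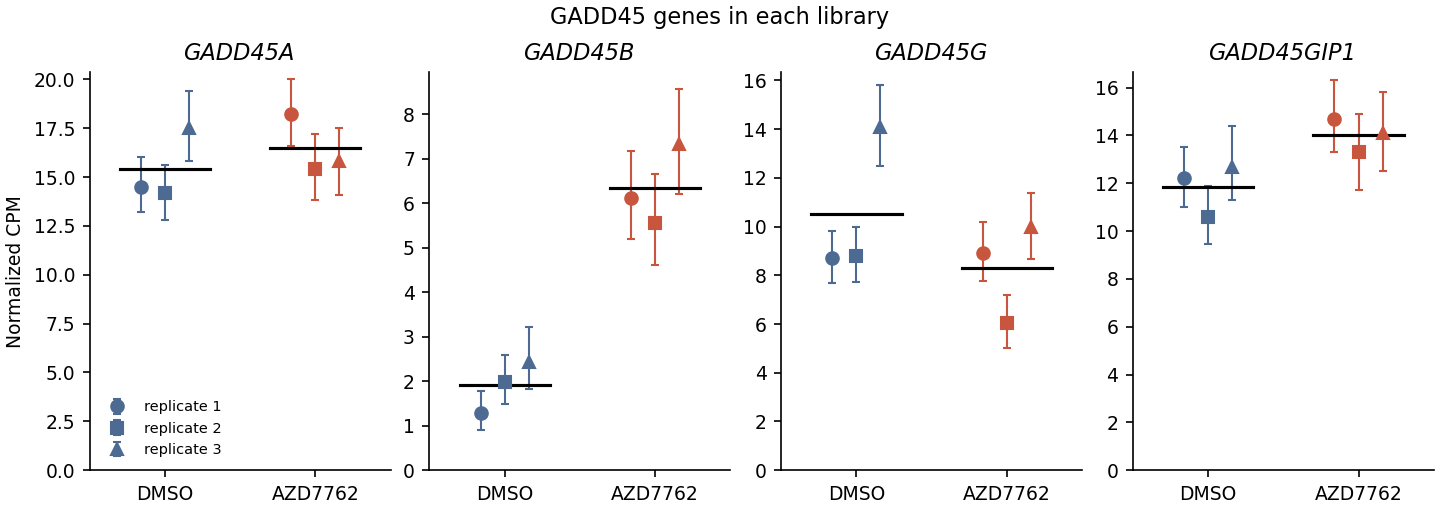
Normalized CPM (y axis, from 0, a separate scale for each gene) of the 4 GADD45 genes in the 3 DMSO (blue) and 3 AZD7762 (red) libraries. Symbols give the replicate, bars the 95% Poisson interval of the count and black lines the group mean. The groups are far apart for GADD45B, from 1.29 to 2.44 CPM against 5.56 to 7.32 CPM, whereas those of GADD45A and GADD45G overlap.

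GADD45A, the founding member of the family, had 14.5, 14.2 and 17.5 CPM in DMSO libraries and 18.2, 15.4 and 15.8 CPM in AZD7762 libraries. DMSO replicate 3 lay above 2 of the 3 AZD7762 libraries, so the groups overlapped. The log2 fold change was 0.11 (95% confidence interval -0.12 to 0.33, adjusted p = 0.800 in edgeR's test), which is a fold of 1.08 with an interval from 0.919 to 1.26. The difference was thus smaller than the spread between replicates, and it ranged from 0.0146 to 0.207 on the log2 scale when single libraries were left out.

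GADD45G, also known as CR6 and classically induced by cytokines, had 8.70, 8.79 and 14.1 CPM in DMSO libraries and 8.91, 6.04 and 9.99 CPM in AZD7762 libraries. DMSO replicate 3 was the highest library and AZD7762 replicate 2 the lowest, and the other 4 lay close together from 8.70 to 9.99 CPM. The log2 fold change was -0.32 (95% confidence interval -0.76 to 0.12, adjusted p = 0.652 in edgeR's test). It was -0.0667 without DMSO replicate 3 and -0.148 without AZD7762 replicate 2, so that the difference in means rested largely on these 2 libraries. The interval of the fold runs from 0.591 to 1.08 of the DMSO level, so that neither a sizeable decrease nor no change could be told apart with this spread. The fitted biological coefficient of variation of GADD45G was 16.4%, the highest of the 4 genes, whereas the median of the 1640 genes of like abundance (within 0.5 on the log2 scale) was 7.87%. The same measure was 12.6% for GADD45B (median 8.87%), 8.41% for GADD45A (median 7.24%) and 7.44% for GADD45GIP1 (median 7.49%). Within the DMSO group alone, the plain coefficient of variation was 30.6% for GADD45B and 29.3% for GADD45G.

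GADD45GIP1 had 12.2, 10.6 and 12.7 CPM in DMSO libraries and 14.7, 13.3 and 14.1 CPM in AZD7762 libraries. The lowest AZD7762 library was above the highest DMSO library, a separation that held for 15.0% of all genes tested. The log2 fold change was 0.25 (95% confidence interval 0.03 to 0.46), with a p of 0.0266 before adjustment in edgeR's test, a level that 9.68% of all genes passed, and an adjusted p of 0.432. After removal of trends with GC content and length, an alternative chosen after seeing the data, the log2 fold change of GADD45GIP1 was 0.142.

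In DMSO replicate 3, the library with the lowest total at 20486391 counts, all 4 genes were at their highest level within the DMSO group. The other DMSO libraries held 29402440 and 26921225 counts, and the AZD7762 libraries 25494187, 21441444 and 21503144. A count of 3 corresponded to between 0.102 and 0.146 CPM, well under the lowest GADD45B value. Mitochondrial genes took 1.57%, 2.13% and 2.12% of the counts with DMSO and 2.26%, 2.28% and 2.63% with AZD7762. Their part in the differences between libraries was not tested.

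Levels of the 4 genes were compared per kilobase of exon, since longer transcripts collect more reads. With DMSO, GADD45A stood at 8.0 ± 0.964 CPM per kilobase, GADD45G at 7.96 ± 2.33, GADD45GIP1 at 6.71 ± 0.624 and GADD45B at 0.891 ± 0.273. By this length, GADD45G overlapped both GADD45A and GADD45GIP1. GADD45A, at 7.54, 7.36 and 9.11, did not overlap GADD45GIP1, at 6.91, 6.01 and 7.21 CPM per kilobase. GADD45B was far below the others, its highest DMSO library at 1.14 and the lowest of GADD45GIP1 at 6.01 CPM per kilobase. With AZD7762, the levels were 8.56 ± 0.798 for GADD45A, 7.93 ± 0.422 for GADD45GIP1, 6.28 ± 1.54 for GADD45G and 2.96 ± 0.419 for GADD45B. GADD45B thus remained the least abundant of the 4 after its rise. With the longest transcript as the length, the DMSO levels were 11.4 CPM per kilobase for GADD45A, 9.88 for GADD45G, 6.71 for GADD45GIP1 and 0.949 for GADD45B. The order was the same, but GADD45G, at 8.16, 8.25 and 13.2, then no longer overlapped GADD45GIP1, at 6.91, 6.01 and 7.21 CPM per kilobase.

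GADD45A and GADD45G made up most of the summed level of the 3 paralogs in both groups. GADD45B accounted for 4.09%, 6.22% and 5.47% of this sum in DMSO replicates 1, 2 and 3 and for 15.0%, 17.1% and 17.9% in the AZD7762 replicates. The share of GADD45G was 46.7% ± 3.67 with DMSO and 34.9% ± 4.70 with AZD7762, and that of GADD45A 48.0% ± 3.98 and 48.4% ± 5.17. The sum itself was 16.9 ± 3.51 CPM per kilobase with DMSO and 17.8 ± 2.27 with AZD7762, a difference within the spread. The shares of GADD45B and GADD45G did not overlap between the groups, whereas those of GADD45A did. The shares add up to the whole, so that a higher share of GADD45B lowers the others, and the level of GADD45G itself overlapped between the groups.

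**Figure D2:**
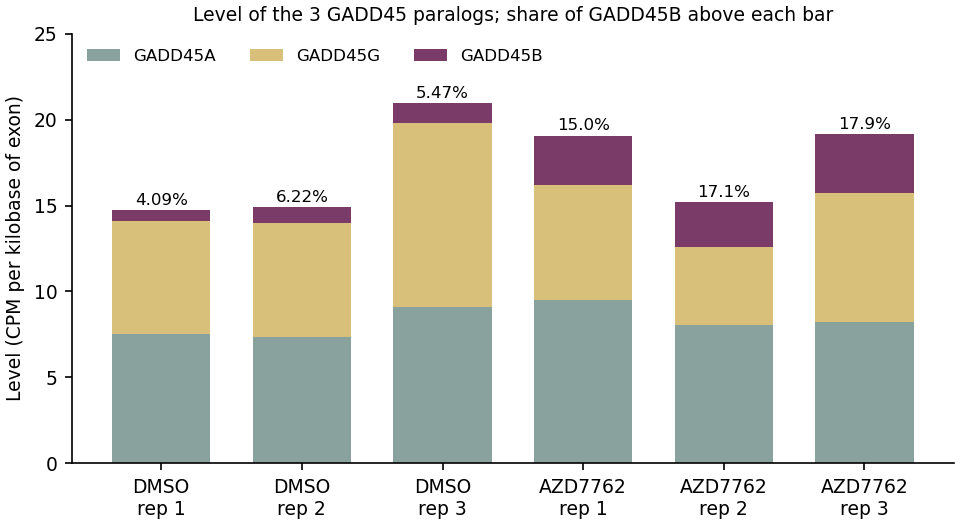
Level of GADD45A (grey-green), GADD45G (yellow) and GADD45B (purple) in each library, stacked, in CPM per kilobase of exon (y axis, from 0). The percentage above each bar is the share of GADD45B, 4.09% to 6.22% in the DMSO and 15.0% to 17.9% in the AZD7762 libraries.

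Whether the members responded differently was tested on the log2 ratio of each pair within a library (prior count of 2). The change of GADD45B exceeded that of GADD45G by 2.06 and that of GADD45GIP1 by 1.48 on the log2 scale, with no overlap between the groups. The ratio of GADD45A to GADD45B was lower by a difference of -1.63, from 3.00 ± 0.36 to 1.37 ± 0.24 on the log2 scale (SD, n = 3 in each group, exact permutation p = 0.1, two-sided, adjusted 0.150 over 6 pairs). An exact permutation p of 0.1 is the smallest that 3 libraries against 3 allow, and the pairs of GADD45B with GADD45G and GADD45GIP1 and the pair of GADD45G and GADD45GIP1 also reached it. GADD45G and GADD45GIP1 differed by -0.57, with ratios of -0.20 ± 0.32 and -0.78 ± 0.32. For GADD45A against GADD45G the difference was 0.43 (exact permutation p = 0.300) and for GADD45A against GADD45GIP1 -0.14 (exact permutation p = 0.200), both with overlapping groups.

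Genes whose levels followed each paralog most closely over the 6 libraries were sought among 13877 genes by the root mean square distance of centred log2 CPM. The closest to GADD45B were ZFP36, MYC and KLF4, at distances of 0.24, 0.25 and 0.26. ZFP36, which encodes an mRNA decay protein, had 9.92, 10.0 and 11.2 CPM in DMSO libraries and 31.2, 29 and 33.2 CPM in AZD7762 libraries, a log2 difference of 1.59 (edgeR adjusted p = 3.56e-07). KLF4, a zinc finger transcription factor, had 11.2, 11.6 and 12.5 CPM in DMSO libraries and 39.3, 43.9 and 41.9 CPM in AZD7762 libraries, a log2 difference of 1.83 (edgeR adjusted p = 4.10e-08). These genes were picked for their likeness to GADD45B, so their rise is no separate evidence. The closest to GADD45A were RBM42, LTB4R and MRPS34, and those to GADD45G were FZD9, DDIT4 and TSPEAR-AS1. None of these 6 was called between the groups. DDIT4, itself a DNA damage-inducible gene, had 3.83, 4.23 and 6.61 CPM in DMSO libraries and 3.86, 2.52 and 4.41 CPM in AZD7762 libraries, with the same high and low libraries as GADD45G.

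**Figure D3:**
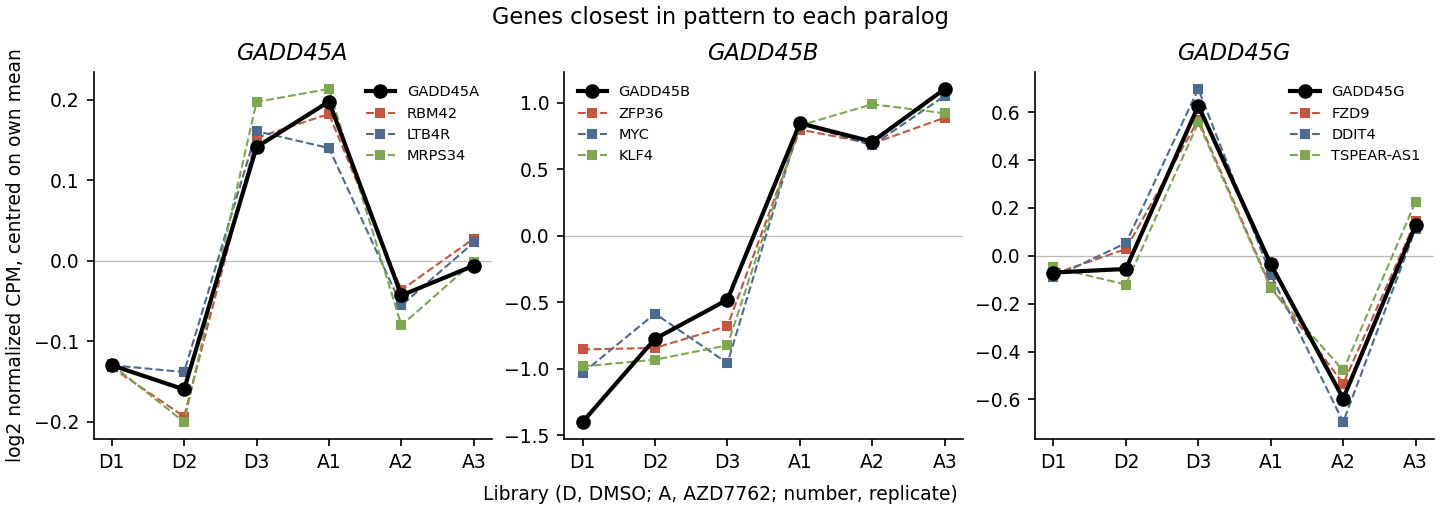
log2 normalized CPM of GADD45A, GADD45B and GADD45G (black) and of the 3 genes closest to each (coloured), centred on each gene's own mean (y axis, a separate scale for each panel) over the 6 libraries (x axis; D, DMSO; A, AZD7762). The GADD45B group steps up between D3 and A1, whereas GADD45G and its closest genes are highest in D3 and lowest in A2.

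Transcripts of proteins that GADD45 proteins bind were compared next. Of 9 binding partners tested, 1 rose and none fell, and the median log2 difference was 0.03, beside 0.708% called and a median of 0.01 among all genes. CCNB1 and MAP3K4 had an unadjusted p under 0.05 as well, which 9.68% of all genes had. The gene that rose was AURKA, a mitotic kinase that GADD45A is known to inhibit. It had 82.5, 75.5 and 75.4 CPM in DMSO libraries and 99.8, 106 and 95.9 CPM in AZD7762 libraries, that is 0.37 ± 0.0637 on the log2 scale (SE, edgeR adjusted p = 0.0153). This call was lost without DMSO replicate 2 (adjusted p = 0.101), AZD7762 replicate 1 (adjusted p = 0.0833) or AZD7762 replicate 2 (adjusted p = 0.102) in edgeR's test, where the log2 fold changes were 0.34, 0.36 and 0.32. The log2 fold changes of CDK1 and PCNA, a mitotic kinase and the replication clamp, were both 0.01. That of CCNB1 was 0.14 (adjusted p = 0.465, edgeR) and that of CDKN1A, which encodes p21, -0.12 (adjusted p = 0.685, edgeR). MAP3K4, the kinase that GADD45 proteins activate, had 80.1 ± 2.08 CPM in DMSO libraries and 73.0 ± 2.99 CPM in AZD7762 libraries (log2 fold change -0.13, adjusted p = 0.491, edgeR), and MAP2K7 had 23.2 ± 3.59 and 26.2 ± 3.57 CPM.

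Of the 12 kinases of the p38 and JNK cascade, 0 were called in edgeR's test, 2 had an unadjusted p under 0.05, beside 0.708% and 9.68% of all genes, and the log2 fold changes lay between -0.15 and 0.17. These 2 were MAPK8, which encodes JNK1, with 110.0 ± 2.03 CPM in DMSO libraries and 99.6 ± 1.36 CPM in AZD7762 libraries, and MAPKAPK5, a kinase activated by p38, with 82.6 ± 1.99 and 74.5 ± 2.20 CPM. Of 11 genes of active DNA demethylation, 0 were called and 2 had an unadjusted p under 0.05. They were the glycosylase gene MBD4 (log2 fold change -0.20) and the repair scaffold gene XRCC1 (0.20), while TDG and TET1 were at -0.05 and -0.06. DESeq2, limma-voom and edgeR's likelihood ratio test called 0 genes of either list as well.

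Among 18 transcription factors known to act on GADD45 genes, 2 rose and none fell, beside 0.357% of all genes called higher and 0.351% lower, and 4 had an unadjusted p under 0.05, beside 9.68% of all genes. The median log2 fold change was 0.01, as over all genes. MYC, known as a repressor of GADD45A, had 2.64, 3.60 and 2.78 CPM in DMSO libraries and 9.70, 8.65 and 11.2 CPM in AZD7762 libraries. It rose by 1.70 ± 0.148 on the log2 scale (SE, edgeR adjusted p = 4.69e-05). EGR1, an immediate early zinc finger factor, had 53.7, 38 and 33.4 CPM in DMSO libraries and 88.8, 91.0 and 78.6 CPM in AZD7762 libraries, that is 1.04 ± 0.135 on the log2 scale (SE, edgeR adjusted p = 0.00151). For both genes the groups did not overlap. The log2 fold changes of RELA and NFKB1, the NF-κB subunits, were 0.15 and 0.06, that of FOXO1 was -0.25, that of FOXO3 was -0.04 and that of ATF4 -0.03.

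The acronym GADD, for growth arrest and DNA damage, also names DDIT3 (GADD153) and PPP1R15A (GADD34), which belong to other protein families and to the integrated stress response. DDIT3 had 29, 28.9 and 31.0 CPM in DMSO libraries and 14.0, 14.7 and 15.9 CPM in AZD7762 libraries. It fell by 1.0 on the log2 scale (SE 0.0798, edgeR adjusted p = 2.09e-05), opposite in direction to GADD45B, and was 1 of the 0.351% of genes called lower. Of the exon length of DDIT3, 31.6% overlaps exons on the opposite strand and 8.03% those of another gene on the same strand. Reads of other genes may therefore be included in its value, since the strand setting is not given. PPP1R15A had 73.8 ± 6.34 and 65.1 ± 3.72 CPM in the 2 groups, which differed by -0.18 on the log2 scale (edgeR adjusted p = 0.455).

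**Figure D4:**
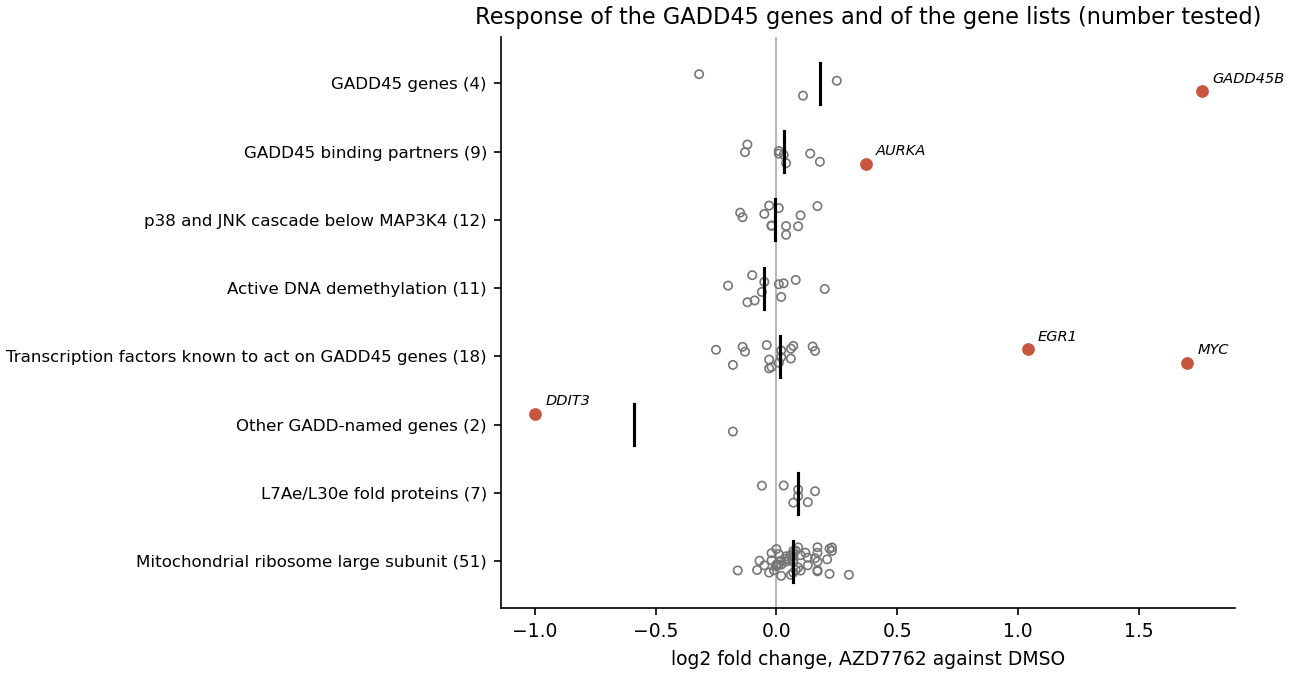
log2 fold change of AZD7762 against DMSO (x axis) for the 4 GADD45 genes and the genes of 7 lists (rows, number tested in parentheses; vertical scatter within a row is arbitrary). Filled red points were called at an adjusted p under 0.05 and are named, open points were not, and black lines are medians. Apart from GADD45B at 1.76, MYC at 1.70, EGR1 at 1.04, DDIT3 at -1.0 and AURKA at 0.37, no gene shown was called.

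The structural relatives of each kind of member were examined last. GADD45A, GADD45B and GADD45G have the L7Ae/L30e fold, which is also that of ribosomal and RNA-binding proteins such as RPL7A, RPL30 and RPS12. Of 7 genes for such proteins, 0 were called in edgeR's test and 1, NHP2 at 0.16, had an unadjusted p under 0.05, with a median log2 fold change of 0.09. For GADD45GIP1, the reference was the large subunit of the mitochondrial ribosome. Of 52 genes, 51 were tested, 0 were called and 7 had an unadjusted p under 0.05, with MRPL37 at 0.21, MRPL28 at 0.22, MRPL17 at 0.17 and MRPL36 at 0.23 having the smallest p. The median log2 fold change was 0.07, with 40 genes above 0 and 11 below, beside a median of 0.01 with 9242 above and 8407 below among all genes, of which 0.708% were called and 9.68% had an unadjusted p under 0.05. The range from -0.16 to 0.30 includes that of GADD45GIP1, 0.25. DESeq2, limma-voom and edgeR's likelihood ratio test also called 0 genes of these 2 lists.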

How the data were processed

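RNA of EndoC-βH1 cells was measured in 6 libraries, grouped by treatment from the sample titles. The authors trimmed reads (cutadapt 1.18), aligned them to GRCh37 and deposited raw gene counts from HTSeq-count, 1 file per library, without scaling or filter. The aligner, annotation release and strand setting are not given in the sources used here.

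Symbols, exon lengths and overlaps came from GENCODE v44 lifted to GRCh37, which lists 58646 (96.7%) of the identifiers. Genes were filtered with filterByExpr, scaled with TMM and tested with treatment as the only term in edgeR 4.0.16 (R 4.3.3) by its quasi-likelihood test, two-sided, with Benjamini-Hochberg adjustment over 17649 genes and a threshold of 0.05. All 4 members passed the filter. Standard errors were taken as the absolute log2 fold change over the root of its F statistic. DESeq2 1.42.0, limma 3.58.1 (voom), other scalings, filters, the replicate number as a term and leaving out each library were alternatives. Procedures were tested on simulated data.

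The members and gene lists were chosen with earlier results of these data known. Named genes were the members, called list genes, up to 4 genes per list with the smallest p, and the 3 genes closest to each paralog (mean log2 CPM 1 or more). Other list genes named here were chosen after their values were seen. No 2 replicates were alike within sampling noise (chi-square per gene from 4.93 to 9.68). Some genes are not reported here.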

Additional observations from a re-analysis of the deposited data

How the results depend on the processing

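The log2 fold changes of the 4 GADD45 genes kept their direction and their side of the threshold under all 16 alternatives. They ranged from 1.52 to 1.96 for GADD45B, with the largest adjusted p at 0.0148, without AZD7762 replicate 1, in edgeR's test. They ranged from 0.0146 to 0.207 for GADD45A, from -0.467 to -0.0667 for GADD45G and from 0.142 to 0.299 for GADD45GIP1. The 6 differences between members kept their sign with log2(CPM + 1) and with library totals.

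Against 125 genes called (63 higher, 62 lower), 330 were called when low counts were not filtered, 267 by the likelihood ratio test and 264 (97 higher, 167 lower) after removal of GC and length trends, an alternative chosen after seeing the data, and the cause was not tested. With library totals only, 149 were called, 59 higher and 90 lower. Leaving out single libraries gave between 77 genes (AZD7762 replicate 1 left out) and 168 (DMSO replicate 3 left out). With the replicate number as a block, 378 genes were called. It changed no call of a GADD45 gene, with adjusted p of 1.55e-05 for GADD45B, 0.627 for GADD45A, 0.18 for GADD45G and 0.163 for GADD45GIP1 in edgeR's test, and 1 gene of the mitochondrial ribosome list was then called. Libraries with the same number correlated in their deviations from the group means at 0.0533, 0.124 and 0.21. DMSO replicates 2 and 3 correlated best with the AZD7762 library of their own number, but DMSO replicate 1 with AZD7762 replicate 2, at 0.175. Correlations between libraries of different number ranged from -0.253 to 0.175. The labels do not say whether the numbers mark pairs, and these correlations do not settle it. The main test left the replicate number out. With 3 libraries per group, the fold changes of GADD45G (SE 0.202) and GADD45B (SE 0.198) are the least precise of the 4, and the DMSO level of GADD45B rests on between 38 and 54 counts a library.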
